A study of Mus musculus with 6 samples.

Results

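The nuclear genes of respiratory complex I and of its assembly were examined in mouse cells that overexpress a mutant PPARγ2, the adipocyte form of the nuclear receptor that drives fat cell differentiation. Members were all genes of the deposited tables whose symbol begins with Nduf, apart from symbols that hold "-ps". The tables held 55 such symbols among 56884 gene IDs, of which 3 were excluded as "-ps" rows and 52 were kept. Transcript levels are given as TPM, the share of a gene among all transcripts after scaling for its length. Members entered the test where 3 or more of the 6 libraries had a TPM of 0.5 or higher, which 50 of the 52 members did, as did 15426 genes in all.

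The cells were a cell line of the stromal vascular fraction (SVF) of mouse subcutaneous white adipose tissue (scWAT), the fraction that holds adipocyte precursors. A retroviral pMXs-Puro vector carried HA-tagged mouse PPARγ2 with lysine 382 changed either to glutamine (K382Q), which resembles acetylated lysine, or to arginine (K382R), which resembles deacetylated lysine, and both lines were selected with puromycin. Both were then taken to day 2 of beige adipocyte differentiation in induction medium with isobutylmethylxanthine, indomethacin, dexamethasone, insulin, T3 and the PPARγ ligand rosiglitazone. RNA was sequenced from 3 biological replicates of each mutant, and a line with unmutated PPARγ2 or without the vector was not analysed here, so each difference is one between K382Q and K382R. Nothing states that the replicates came from separate transductions, and p-values measure the spread between those replicates. Each mutant was expressed from a viral vector in addition to the PPARγ of the cells themselves.

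Complex I (NADH:ubiquinone oxidoreductase) takes electrons from NADH, passes them through a flavin and a chain of iron-sulfur clusters to ubiquinone, and pumps protons across the inner mitochondrial membrane. It has a matrix arm, which carries the redox centres, and a membrane arm, which pumps. The core subunits are encoded partly in the nucleus and partly in mitochondrial DNA, the many accessory subunits are nuclear, and assembly factors help to build the complex without staying in it. Brown and beige adipocytes hold many mitochondria, and their heat production draws on electron transport through this complex.

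The libraries held an estimated 5.95 to 8.15 Gb of aligned bases, and 61.3% of the variance over the tested genes lay on a first principal component, which separated the mutants. Among the markers, the summed TPM of 7 adipocyte genes was 52626 to 56286 in K382Q and 44055 to 45290 in K382R libraries, although 2 of the 7 rose, 3 fell and the others did not pass the test. That of 5 brown or beige genes was 284 to 293 and 132 to 133. Of these 5 genes, Cox8b did not reach the filter and the other 4 were called higher, among them Ucp1, which was below 0.5 TPM in every K382R library and so was tested only through its K382Q values. The 6 mesenchymal or preadipocyte markers summed to 117 to 126 in K382Q and 188 to 192 in K382R libraries, with 5 lower in K382Q and Dlk1 below 0.5 in every library. Leukocyte markers were near 0 (5 of 6 below 0.5 in every library, Ptprc among them), as were endothelial markers (3 of 4, with Cdh5) and the muscle markers Myh4 and Ckm. The third muscle marker, Acta1, fell, and the 3 summed to 2.21 to 2.97 TPM in K382Q and 4.59 to 5.76 TPM in K382R libraries. The part of the adipocyte, beige, mesenchymal and muscle markers in the complex I values was not tested. In bulk RNA, a change in the number of cells of a type and a change in RNA per cell cannot be told apart.

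Of the 50 members tested, 40 rose in PPARγ2 K382Q-overexpressing cells at an adjusted p under 0.05 (limma), and 0 fell. Of all genes tested, 11.1% were called higher and 36.9% lower. At an unadjusted p under 0.05, 42 members were higher and 0 lower, against 13.1% and 41.1% of all genes. The changes were small, with a median log2 fold change of 0.25 against -0.14 for all genes tested, and 47 of the 50 members stayed within 1.5-fold, while the other 3 rose beyond it, as did 3.74% of all genes at an adjusted p under 0.05. Every one of the 37 measured complex I subunits had a log2 fold change above 0, as had 32.5% of all genes tested. Of the 10 members that did not pass the test, 7 were assembly factors. The summed TPM of all members was 11297, 11626 and 11828 in the K382Q libraries and 9618, 9422 and 9495 in the K382R libraries. The sums did not overlap between the mutants. Every K382Q library lay above every K382R library in 40 of the 50 members tested, against 14.1% of all genes tested.

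**Figure D1:**
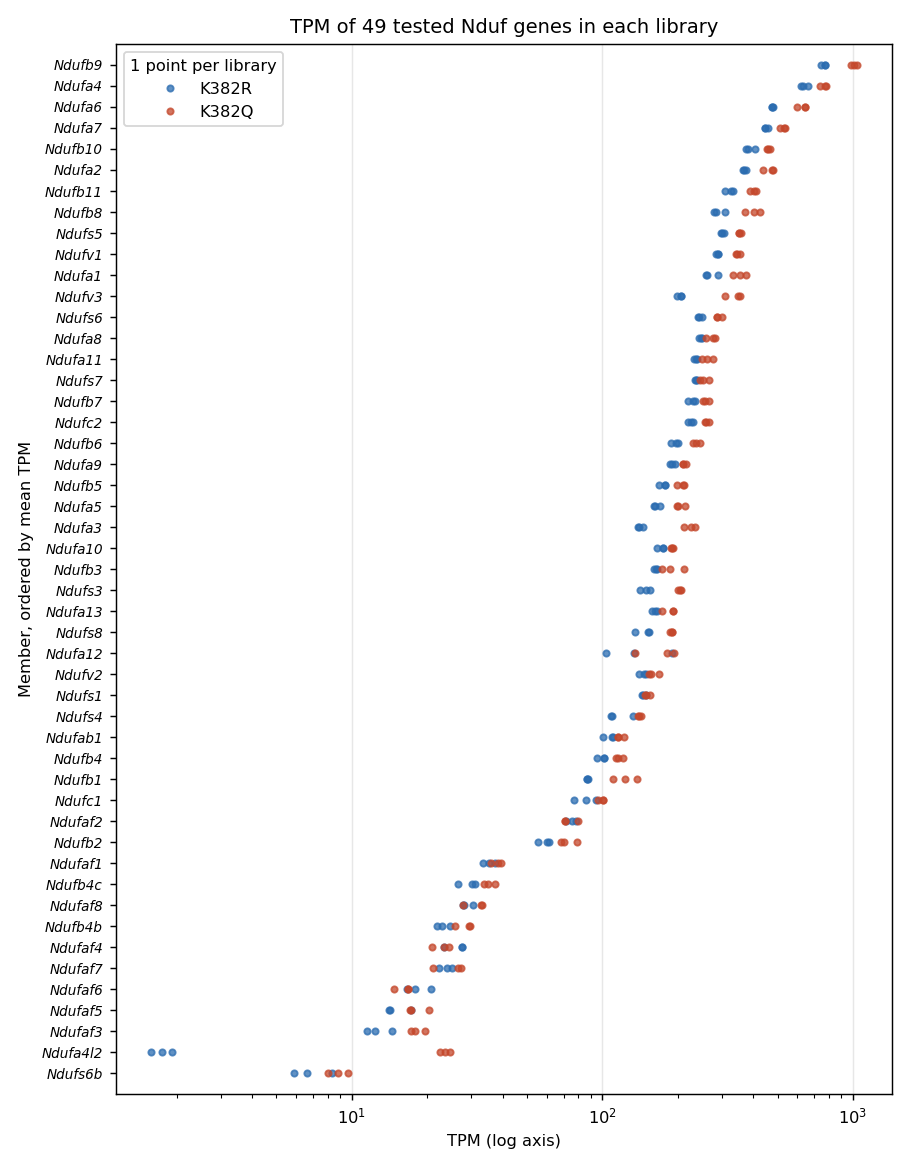
Transcript level (TPM, log axis) of 49 tested Nduf genes in each of the 6 libraries, 1 point per library, with K382Q in red and K382R in blue. The red points lie to the right of the blue points in 39 of them, and the gap is widest for Ndufa4l2, at 22.6 to 24.7 TPM against 1.58 to 1.92.

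These counts depended on scale and on transcript length. TPM gives shares of all transcripts, and the median gene was lower in K382Q. Median-ratio scaling, which sets the median gene of the libraries equal, moved the median of all genes up by 0.14 and called 45 members higher, against 19.8% of all genes. Complex I transcripts are short, with a median of 1034.5 bases against 2784 for all tested genes, and the median log2 fold change across genes was less negative in short genes than in long ones, and above 0 only in the shortest of 10 bins. Spearman's rho between transcript length and log2 fold change was -0.31 over 48 members outside the Ndufa4 pair and -0.19 over all tested genes, in the same 6 libraries. With the trend with length removed, the members' median was 0.12, 24 members were called higher against 9.61% of all genes, and 2 assembly factors were called lower against 39.6% of all genes. With no filter on low values, 26 members were called higher, against 6.51% of the same 15426 genes. Ndufaf3, Ndufb2, Ndufs4, Ndufa13, Ndufab1, Ndufb3 and Ndufc1 were among those that lost their calls there.

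**Figure D2:**
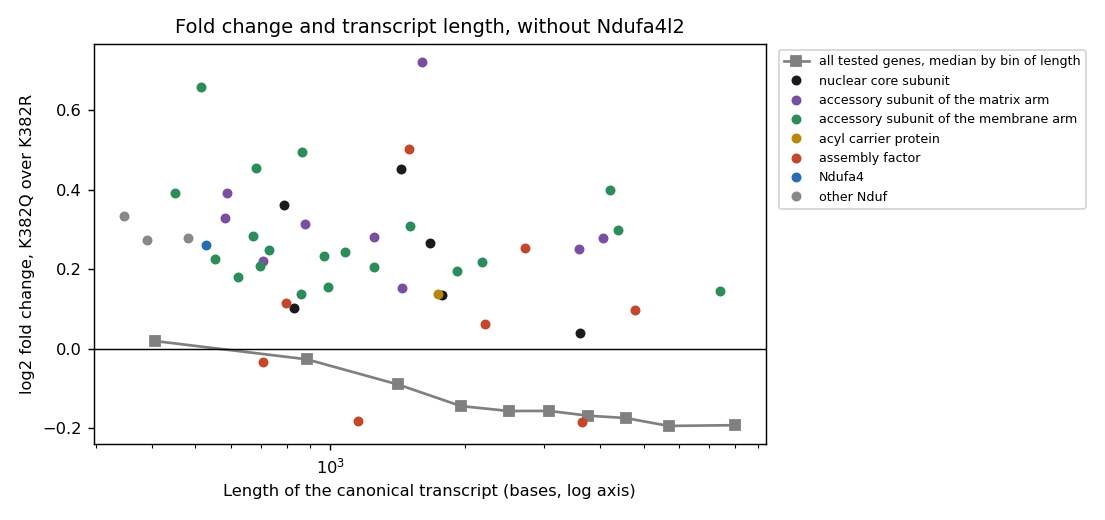
Log2 fold change (K382Q over K382R) of 48 Nduf genes against the length of their canonical transcript (bases, log axis), coloured by role, with the medians of all tested genes in 10 bins of length as grey squares. The grey medians run from 0.02 in the shortest bin to -0.19 in the longest, and most members lie above them.

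The start sites of the members were searched for short motifs of factors known to act on respiratory or hypoxia-regulated genes, since most members moved in 1 direction. RefSeq promoter windows of 300 bases (250 before and 50 after the start, build GRCm38.p6) were matched by symbol to 42 of the 52 members. The windows of 4 members are shown, because Ndufv3, Ndufa3 and Ndufs3 had the largest rises among accessory subunits of each arm and core subunits, while Ndufaf4 had the lowest log2 fold change of all members. They lie at chr17:31519865-31520164 (plus strand), chr7:3617123-3617422 (plus), chr2:90904672-90904971 (minus) and chr4:24897833-24898132 (plus), in that order. Capitals mark motif matches on either strand.
Ndufv3: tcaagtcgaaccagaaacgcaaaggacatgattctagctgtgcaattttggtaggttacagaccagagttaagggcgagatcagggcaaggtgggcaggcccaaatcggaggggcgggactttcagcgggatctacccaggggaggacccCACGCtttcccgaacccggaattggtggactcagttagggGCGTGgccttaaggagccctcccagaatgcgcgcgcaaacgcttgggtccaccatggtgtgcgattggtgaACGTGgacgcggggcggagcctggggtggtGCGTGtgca
Ndufa3: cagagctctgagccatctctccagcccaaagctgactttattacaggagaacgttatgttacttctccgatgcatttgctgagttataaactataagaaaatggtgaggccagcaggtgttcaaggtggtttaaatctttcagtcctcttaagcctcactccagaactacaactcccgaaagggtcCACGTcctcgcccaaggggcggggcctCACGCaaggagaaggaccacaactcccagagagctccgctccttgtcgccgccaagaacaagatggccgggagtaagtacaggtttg
Ndufs3: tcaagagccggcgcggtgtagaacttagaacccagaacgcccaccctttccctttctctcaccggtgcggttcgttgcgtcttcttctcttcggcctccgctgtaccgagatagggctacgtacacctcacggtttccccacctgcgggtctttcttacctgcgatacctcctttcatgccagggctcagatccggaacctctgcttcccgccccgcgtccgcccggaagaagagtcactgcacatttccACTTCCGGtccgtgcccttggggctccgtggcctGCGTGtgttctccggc
Ndufaf4: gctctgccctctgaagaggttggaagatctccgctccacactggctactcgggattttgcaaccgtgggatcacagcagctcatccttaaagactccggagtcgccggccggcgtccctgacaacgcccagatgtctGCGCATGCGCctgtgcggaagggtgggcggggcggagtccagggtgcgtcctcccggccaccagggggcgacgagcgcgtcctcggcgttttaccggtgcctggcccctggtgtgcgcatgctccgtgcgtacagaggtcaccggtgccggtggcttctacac
In Ndufv3 the 4 capital stretches, in Ndufa3 the 2 stretches and in Ndufs3 the stretch nearest the 3′ end are hypoxia response element cores (ACGTG or GCGTG). The other stretch of Ndufs3 is an ETS motif (CCGGAAGT, read here on the opposite strand). The single stretch of Ndufaf4 holds the core of NRF1, a factor of nuclear respiratory genes (GCGCATGCG), once on each strand, and these 2 matches overlap.

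The NRF1 core was present in 4 of the 42 windows (9.52%; Ndufa11, Ndufa8, Ndufaf4 and Ndufaf5), against 4.12% of the windows of tested genes and 1.95% of all windows. Ndufa11 and Ndufa8 rose, and neither Ndufaf4 nor Ndufaf5 passed the test. The ETS motif was found in 1 window (2.38%, against 9.33% of tested genes and 4.31% of all), and the ESRRA motif TCAAGGTCA in 0 (against 0.284% and 0.466%). The hypoxia response element core, short enough to be common, was in 24 windows (57.1%, against 67.4% and 46.7%). The table of windows did not include Ndufa4l2.

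Of 6 nuclear core subunits described here, 5 rose, against 11.1% of all genes tested, with log2 fold changes between 0.10 and 0.45. Ndufs3, a core subunit of the quinone module at the foot of the matrix arm, had a TPM of 201, 204 and 205 in the K382Q libraries and 149, 155 and 142 in the K382R libraries. No K382R library came near the K382Q libraries, and the log2 fold change was 0.45 (SE 0.038, adjusted p = 5.2e-05). Ndufs8, an iron-sulfur subunit of the same module, had 186, 190 and 189 TPM against 135, 152 and 153. This was a log2 fold change of 0.36 (SE 0.051, adjusted p = 0.00072), and 1 K382R library lay below the other two. Ndufv1, the subunit that binds the flavin and NADH, had 340, 353 and 343 TPM in K382Q and 289, 284 and 289 TPM in K382R. Its log2 fold change was 0.27 (SE 0.028, adjusted p = 1.6e-04).

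The other core subunits described here changed little. Ndufv2, the iron-sulfur partner of Ndufv1, had 168, 156 and 154 TPM against 147, 140 and 149, and rose by 0.13 (log2, SE 0.043, adjusted p = 0.033). For Ndufs7, which carries the last iron-sulfur cluster before ubiquinone, the values were 245, 266 and 253 TPM against 239, 235 and 236. It rose by 0.10 (log2, SE 0.035, adjusted p = 0.045), with groups that lay close together but did not overlap. Ndufs1, the largest subunit of the complex and a carrier of several iron-sulfur clusters, had 155, 148 and 149 TPM in K382Q and 144, 150 and 146 TPM in K382R. These groups overlapped, and its log2 fold change of 0.04 (SE 0.031) did not pass the test (adjusted p = 0.35). Ndufs1 was called higher with quantile normalization (0.15), FPKM (0.12, adjusted p = 0.022) and median-ratio scaling (0.19, adjusted p = 0.0015). The calls of Ndufv2 and Ndufs7 were lost when single libraries were left out (3 and 5 of the 6 libraries in turn), with no filter and without the intensity trend, and that of Ndufs7 with the replicate block. With the length trend removed, Ndufv2 stood at 0.08 (adjusted p = 0.15) and Ndufs7 turned to -0.06.

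Among the 9 accessory subunits of the matrix arm, 8 rose, against 11.1% of all genes tested, with log2 fold changes from 0.15 (Ndufa9) to 0.72 (Ndufv3). Ndufv3, a small subunit bound to the NADH-oxidising module, had 308, 347 and 354 TPM in K382Q and 199, 205 and 206 TPM in K382R libraries. It had the highest log2 fold change of the 37 subunits (SE 0.053, adjusted p = 3.0e-05), equal to 1.65-fold, and its flavin-binding neighbour Ndufv1 rose 1.20-fold. Ndufa6, which anchors a copy of the acyl carrier protein, had 596, 643 and 645 TPM against 481, 476 and 477, a log2 fold change of 0.39 (SE 0.036, adjusted p = 8.6e-05). Ndufa2, Ndufa5, Ndufs4, Ndufs6 and Ndufa7 rose by 0.22 to 0.33. The call of Ndufs4 was lost with no filter and without K382R replicate 1 or 2, and those of Ndufa7 (0.04, adjusted p = 0.26) and Ndufa9 (0.07, adjusted p = 0.079) with the length trend removed. Ndufs4 and Ndufs6 sit at the NADH module and are needed for late steps of assembly.

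Ndufa12 was the matrix-arm member that did not pass the test. Its TPM was 135, 194 and 181 in K382Q and 190, 104 and 134 in K382R libraries, so that the groups overlapped (log2 fold change 0.28, SE 0.218, adjusted p = 0.33). The value of Ndufa12 was 0.51 and called higher without K382R replicate 1 (adjusted p = 0.048), 0.08 without K382R replicate 2, and 0.44 and 0.18 when K382Q replicate 1 or 2 was left out. The excluded row Ndufa12-ps, a processed pseudogene copy at chr5:130217236-130217637 (GRCm39), had 319, 278 and 334 TPM against 160, 288 and 289. In K382R replicate 1, Ndufa12 had its highest and Ndufa12-ps its lowest value of that mutant. The sums were 454, 472 and 515 TPM in K382Q and 350, 392 and 423 TPM in K382R, and these did not overlap. With each "-ps" row added to its parent gene, an alternative chosen after seeing the data, 41 members were called higher. The share of all genes called higher in that setting was not worked out.

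All 20 accessory subunits of the membrane arm rose, with log2 fold changes between 0.14 (Ndufa8) and 0.66 (Ndufa3) and a median of 0.24. Of all genes tested, 11.1% were called higher. With the length trend removed, 12 of the 20 were called higher, against 9.61% of all genes. Ndufa3, a small subunit of the proximal membrane arm, had 213, 225 and 235 TPM in K382Q and 141, 139 and 146 TPM in K382R libraries. That is 1.58-fold (log2 0.66, SE 0.042, adjusted p = 1.4e-05). Ndufb1, a small subunit of the distal membrane arm, had 123, 110 and 137 TPM against 86.8, 87.1 and 87.8. The K382R libraries were close together while the K382Q libraries spread more widely, and the log2 fold change was 0.49 (SE 0.070, adjusted p = 0.00078). Ndufb8, which has been used widely as a protein marker of assembled complex I, followed with 0.45.

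Among the nuclear Nduf subunits the most abundant transcript was that of Ndufb9, a distal subunit that also holds an acyl carrier protein, with a mean of 1009 ± 30.7 TPM (SD, n = 3) in K382Q and 765 ± 16.0 TPM in K382R. The lowest by TPM was Ndufb2, at 72.6 ± 5.56 and 58.8 ± 3.12 TPM. TPM is scaled by transcript length, but the deposited coverage did not give the same order. By coverage Ndufs4 lay below Ndufb2, so the rank of the lowest subunit holds for TPM only. Ndufb9 and Ndufb2 rose, by 0.40 and 0.30 (log2), although Ndufb2 did not pass with no filter (adjusted p = 0.084). The X-linked subunits Ndufa1 and Ndufb11 rose by 0.39 and 0.31. At the low end, Ndufa8, Ndufa10, Ndufa11 and Ndufb7 rose by 0.14 to 0.18, and with the length trend removed Ndufa8, Ndufb7 and Ndufa11 stood at -0.02, -0.0010 and 0.01 and lost their calls. The calls of Ndufa8, Ndufb3 and Ndufc1 were lost without 3, 4 and 5 single libraries.

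Ndufab1 is the mitochondrial acyl carrier protein, present in both arms and also used in mitochondrial fatty acid synthesis. It had 116, 115 and 122 TPM against 101, 109 and 110, and rose by 0.14 (log2, SE 0.044, adjusted p = 0.034). The groups did not overlap but lay close together, and the call was lost without any of 4 single libraries. It was also lost with the length trend removed (0.08, adjusted p = 0.18) and without the intensity trend (adjusted p = 0.088).

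**Figure D3:**
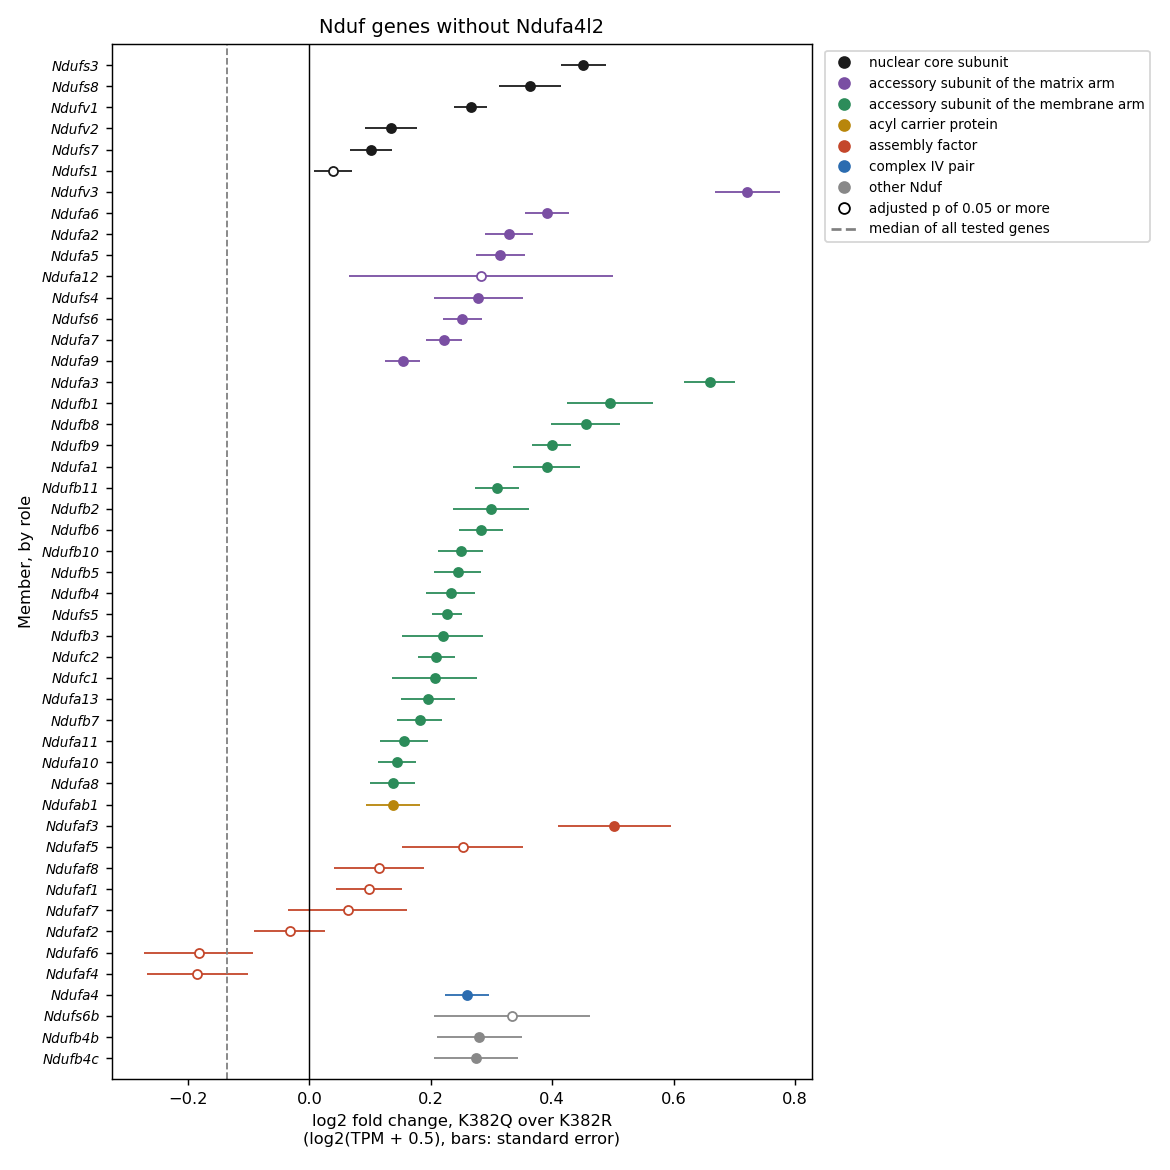
Log2 fold change (K382Q over K382R) on the log2(TPM + 0.5) scale of 48 tested Nduf genes, grouped by role, with standard errors as bars, filled points for an adjusted p under 0.05, and a dashed line at the median of all tested genes (-0.14). Accessory subunits reach 0.72, while 7 of the 8 assembly factors are open points. Of all genes tested, 11.1% were called higher and 36.9% lower.

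The assembly factors had means of 12.8 to 75.5 TPM in K382R libraries against 58.8 to 765 TPM for the subunits. These ranges overlapped, since Ndufaf2 lay above Ndufb2 by TPM. By deposited coverage Ndufaf2 lay far below Ndufb2 (1.07 to 1.40 against 33.3 to 47.5), and Ndufaf1 lay above it (87.5 to 107). On the TPM scale 1 of the 8, Ndufaf3, rose, while 11.1% of all genes tested were called higher. The call of Ndufaf3 was lost with no filter (adjusted p = 0.052). With median-ratio scaling 4 were called higher (Ndufaf1, Ndufaf3, Ndufaf5 and Ndufaf8), against 19.8% of all genes. Ndufaf3, which works with Ndufaf4 in assembling the quinone module, had 17.2, 17.9 and 19.6 TPM in K382Q and 12.4, 11.5 and 14.5 TPM in K382R libraries (log2 fold change 0.50, SE 0.093, adjusted p = 0.0030). Its partner Ndufaf4 had 24.5, 23.3 and 21.0 TPM against 27.6, 27.5 and 23.4. Those groups overlapped narrowly, and the log2 fold change was -0.18 (SE 0.083, adjusted p = 0.11). Without K382R replicate 3, the lowest of the K382R libraries for Ndufaf4, the value was -0.26 and passed the test.

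The other assembly factors did not pass the test on the TPM scale either, and some of these calls changed with the scaling. Ndufaf5, which hydroxylates an arginine of Ndufs7, had a log2 fold change of 0.25 (SE 0.0995, adjusted p = 0.070), and Ndufaf8, which acts with it, 0.11 (adjusted p = 0.25). With median-ratio scaling they stood at 0.40 (adjusted p = 0.013) and 0.26 (adjusted p = 0.034), and with quantile normalization both were called higher as well. Ndufaf5 was also called higher with FPKM, with the replicate block and without K382R replicate 1, and Ndufaf8 without K382Q replicate 1. Ndufaf8 turned to -0.05 with the length trend removed. Ndufaf7, an arginine methyltransferase that acts early in assembly, stood at 0.06, and turned to -0.0016 without K382Q replicate 2. Ndufaf1, of the complex that assembles the membrane arm, stood at 0.10 (adjusted p = 0.17), and was called higher under quantile normalization, median-ratio scaling (0.25, adjusted p = 0.0055) and FPKM. Ndufaf2, a paralogue of Ndufa12 that acts late in assembly, had 70.8, 70.7 and 80.1 TPM against 76.0, 71.7 and 78.8, a log2 fold change of -0.03. Its deposited coverage was low for this level, at 1.07 to 1.40 against 33.3 to 47.5 for Ndufb2. Its direction turned under FPKM, median-ratio scaling and quantile normalization (0.05 to 0.13). Ndufaf6, needed early in assembly, stood at -0.18 (SE 0.090, adjusted p = 0.13). With the length trend removed, Ndufaf2 (-0.21, adjusted p = 0.020) and Ndufaf6 (-0.31, adjusted p = 0.024) were the 2 members called lower. The replicates of the assembly factors scattered more than those of the subunits, with a median coefficient of variation of 7.58% against 3.47% in K382Q libraries.

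**Figure D4:**
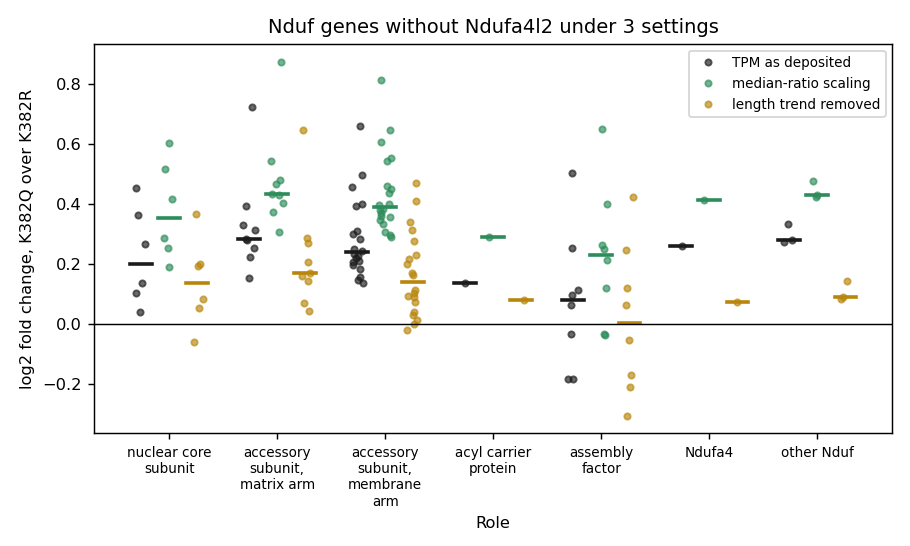
Log2 fold change (K382Q over K382R) of 48 Nduf genes by role, as deposited TPM (black), after median-ratio scaling (green) and with the trend with transcript length removed (ochre), 1 point per gene and a bar at each median. The medians of the matrix-arm and membrane-arm accessory subunits are 0.28 and 0.24, 0.43 and 0.39, and 0.17 and 0.14 under the 3 settings, and that of the assembly factors is 0.08, 0.23 and 0.0049.

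Ndufa4 and Ndufa4l2 carry the Nduf name, but Ndufa4 was later assigned to complex IV, cytochrome c oxidase. Ndufa4l2 is its paralogue, known as a target of hypoxia-inducible factor that lowers mitochondrial oxygen use. Ndufa4 had 780, 740 and 773 TPM in K382Q and 664, 633 and 619 TPM in K382R libraries. It rose by 0.26 (log2, SE 0.036, adjusted p = 0.00068), close to the median of the members. With the length trend removed, the value was 0.07 (adjusted p = 0.13).

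Ndufa4l2 had 24.7, 23.5 and 22.6 TPM against 1.75, 1.58 and 1.92. The groups lay far apart, and the log2 fold change was 3.42 on the log2(TPM + 0.5) scale (SE 0.086, adjusted p = 2.9e-07), or 10.7-fold on that scale. Without a pseudocount, the ratio of the means was 3.75 (log2). It was the 1 member past the thresholds of the study (adjusted p under 0.05 and over 2-fold), which 1.27% of all genes passed upward. The study applied these thresholds to a count-based test (DESeq2). Here they were applied to limma on log2(TPM + 0.5), so the genes that pass can differ. Of the summed TPM of the pair, Ndufa4l2 made up 2.99% ± 0.136 (SD, n = 3) in K382Q and 0.274% ± 0.0312 in K382R libraries. Ndufa4 made up the rest in both mutants.

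Ndufa4l2 lies at chr10:127350836-127353023 on the plus strand (GRCm39). The annotation GENCODE M39 differs in part from the deposited coordinates. In it, exons of Shmt2, mitochondrial serine hydroxymethyltransferase, overlap 63.3% of the exon bases of Ndufa4l2 on the opposite strand. In the deposited coordinates Shmt2 spans 127352992 to 127358313, so the genes share only the last bases of Ndufa4l2. The library kit is not stated to keep strand, so reads of a shared stretch cannot be told apart. The length of that stretch depends on the annotation. Shmt2 was more abundant and its TPM moved the other way, with 382, 397 and 385 TPM in K382Q and 420, 428 and 408 TPM in K382R libraries (log2 fold change -0.11, adjusted p = 0.020). With median-ratio scaling, Shmt2 stood at 0.04 (adjusted p = 0.37) and Ndufa4l2 at 3.55.

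**Figure D5:**
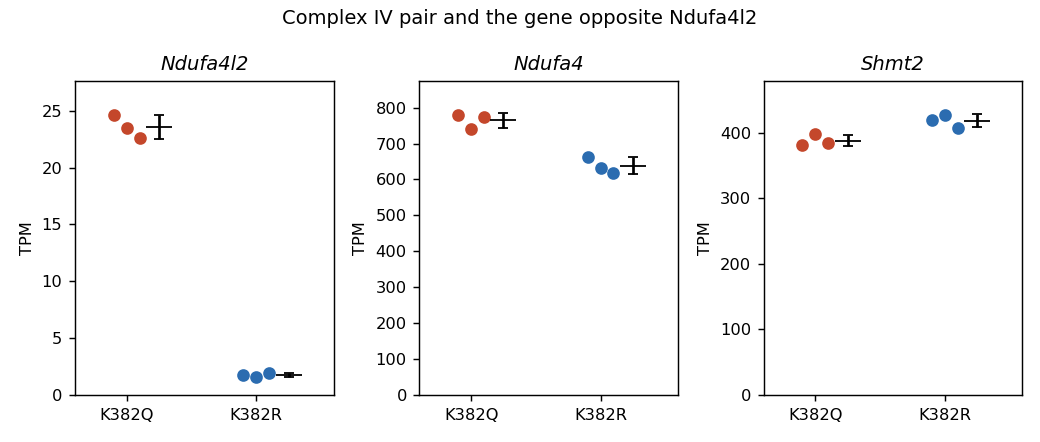
TPM of Ndufa4l2, its paralogue Ndufa4, and Shmt2 in each library (points), with mean and SD of 3 libraries in black. Exons of Shmt2 overlap those of Ndufa4l2 on the opposite strand in GENCODE M39, but in the deposited coordinates only at its end. Ndufa4l2 is at 22.6 to 24.7 TPM in K382Q and 1.58 to 1.92 in K382R, while the TPM of Shmt2 is lower in K382Q than in K382R (with median-ratio scaling it is not).

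In GENCODE M39, such overlap touched other members too. At least 25% of the exon bases lay there under exons of an opposite-strand gene in Ndufb11 (67.8%, Rbm10), Ndufs7 (49.4%, Gamt), Ndufaf2 (47.2%, B230220B15Rik), Ndufa3 (46.0%, Tfpt), Ndufa13 (43.3%, Tssk6), Ndufb1 (41.8%, Cpsf2), Ndufaf8 (37.6%, Tepsin), Ndufb9 (28.7%, Mtss1) and Ndufa6 (25.6%, Smdt1). In the deposited coordinates, Ndufs7 and Gamt, Ndufb9 and Mtss1, Ndufa6 and Smdt1, and Ndufaf8 and Tepsin do not overlap. The other pairs overlap there in part, and Ndufa3 and Tfpt by only a few bases. On the TPM scale none of these opposite genes was called higher. Rbm10 (-0.20), Cpsf2 (-0.36) and Tepsin (-0.25) fell, as Shmt2 did. Gamt, Tfpt, Tssk6, Mtss1 and Smdt1 did not pass the test, with log2 fold changes from -0.40 to 0.07, and B230220B15Rik was below the filter. With median-ratio scaling, Cpsf2 stayed lower (-0.21), Rbm10 and Tepsin did not pass the test, and Smdt1 was called higher (0.14, adjusted p = 0.032).

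The last 5 members are retrocopies or less studied copies. Ndufb4b, annotated as a long non-coding RNA at chr19:25010493-25010965, had 25.8, 29.5 and 29.4 TPM against 23.0, 24.7 and 21.8. Ndufb4c, a transcribed pseudogene at chr15:73681356-73681745, had 33.6, 35.1 and 37.4 TPM against 30.1, 31.0 and 26.5. Both rose by about as much as their parent Ndufb4 (0.28 and 0.27 against 0.23, log2), and with the length trend removed none of these 3 passed the test (0.09, 0.08 and 0.09). With no filter Ndufb4b and Ndufb4c did not pass either. Reads of near-identical copies may have been split between them by the counting. Ndufs6b, another transcribed pseudogene, had 9.62, 8.07 and 8.78 TPM against 5.89, 8.34 and 6.61. Its groups overlapped (0.33, SE 0.128, adjusted p = 0.065), and it was called higher under quantile normalization, median-ratio scaling and FPKM and without K382R replicate 2. In GENCODE M39 a non-coding RNA on the same strand covers 87.1% of its exon. Ndufa11b was listed at 0 in every library, and Ndufb11b at 0 in 5 libraries and at 0.0644 in K382R replicate 3.

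Complex I also needs subunits from mitochondrial DNA and assembly factors of other names. All 7 mitochondrially encoded subunits rose, from 0.62 for mt-Nd5 to 0.86 for mt-Nd2 (log2), while 11.1% of all genes tested were called higher. Their summed TPM was 15096, 12769 and 12357 in K382Q and 8167, 8202 and 7856 in K382R libraries, highest in K382Q replicate 1. Of 13 listed assembly factors of other names, 12 were in the tables and passed the filter. Their median log2 fold change was -0.04 against -0.14 for all genes tested, and 0.11 against 0.0032 with median-ratio scaling. Of the 12, 1 was called higher and 3 lower, against 11.1% and 36.9% of all genes tested. Foxred1, a late assembly factor, rose by 0.24, with 47.2, 40.7 and 44.0 TPM against 37.4, 36.6 and 37.2. Acad9, which acts with Ndufaf1, fell by 0.24 (39.8, 39.5 and 35.7 TPM against 43.8, 46.2 and 46.4). Tmem70 also fell, by 0.24, and Timmdc1, named after its values were seen, by 0.23. Nubpl, which delivers iron-sulfur clusters to complex I, had a log2 fold change of 0.25 and an adjusted p of 0.052. With median-ratio scaling, Nubpl was called higher (0.39, adjusted p = 0.012), as was Ecsit, a partner of Ndufaf1 named after its values were seen (-0.01 on the TPM scale and 0.14 there, adjusted p = 0.021). In that setting Acad9, Tmem70 and Timmdc1 stood at -0.09, -0.08 and -0.08 and did not pass the test.

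Of 10 listed regulators of nuclear respiratory genes, 9 passed the filter. Ppargc1a, which encodes the coactivator PGC-1α, rose by 1.17 (log2, SE 0.122, adjusted p = 1.6e-04), with 5.00, 4.57 and 4.28 TPM against 1.93, 1.88 and 1.53. Pprc1, a related coactivator, fell by 0.47, with 28.7, 28.6 and 29.7 TPM against 40.4, 40.2 and 40.9. Tfam, which maintains and transcribes mitochondrial DNA, fell by 0.15 (adjusted p = 0.039). Nrf1 had a log2 fold change of 0.07 (adjusted p = 0.23), and the other 5 did not pass the test. With median-ratio scaling Tfam stood at -0.0011 and did not pass, Nrf1 was called higher (0.22, adjusted p = 0.0060), and Ppargc1a and Pprc1 kept their calls.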

How the data were processed

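RNA-seq libraries of 3 PPARγ2 K382Q- and 3 PPARγ2 K382R-overexpressing replicates were analysed from gene abundance tables of StringTie, for which the authors had aligned reads to GRCm39 with HISAT2. The deposited coverage is a read coverage per gene, the deposited FPKM is scaled to the aligned bases and gene length, and the deposited TPM sums to the same total in every library. Gene IDs that occurred more than once (3 to 5 further entries per table) were summed. Coverage divided by FPKM was not constant over genes: 16.4% to 16.8% of genes with an FPKM above 1 shared the highest ratio within 0.1%, and the median gene lay at 64.0% to 64.2% of it. The highest ratio was taken as an estimate of library depth (aligned bases), and no counts were analysed here, so precision is that of 3 replicates. Groups were compared on log2(TPM + 0.5) with limma 3.58.1 (R 4.3.3; variance trend by intensity), over genes that reached a TPM of 0.5 in 3 or more libraries, and p-values were adjusted by Benjamini and Hochberg over all 15426 genes. A fold change on this scale understates the change of low genes. The smallest exact permutation p of 3 against 3 is 0.1, so single genes were tested only within this fit. Coordinates are those of the tables (GRCm39). GENCODE M39 held 99.0% of the gene IDs but the same ID version and coordinates for only 56.8%. It gave gene types, exon overlaps and the length and GC content of the canonical transcript. Lengths may therefore differ from the authors' annotation, and some of the overlaps do. Promoter windows are those of RefSeq on GRCm38.p6, and no coordinates were converted. Other steps ran in pandas 2.3.3, numpy 2.4.6 and matplotlib 3.10.9 under Python 3.11.15. The fit was tested on simulated data. At a simulated 1.5-fold change it called 37 of 50 changed genes in the right direction and 0 in the wrong one. There were 13 false calls among 15152 genes run. Smaller changes were not simulated, although 47 members stayed within 1.5-fold. The simulated noise was drawn from the variances of the same fit. Few genes were changed, up and down in equal number, while in the data 11.1% were called higher and 36.9% lower. Recovery and false calls in the real libraries may therefore differ.

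The members and gene lists were chosen with earlier results of these data known. Values by library are given for the core subunits, members past the DEG thresholds, Ndufa4 and Ndufa4l2, and the 2 largest rises and falls per role among members at an adjusted p under 0.05, and in the report also for members singled out after their values were seen. Of the other lists at most 4 genes were to be named. The values of 1 member are left out of the text and plots, and it stays in the counts over all members. Alternatives changed the pseudocount (1 or 0.1), the filter (none, or a TPM of at least 1), the unit (FPKM), the scaling (quantile normalization or median-ratio), the variance model (array weights, or without the trend), the samples (leaving out each library in turn), the design (a replicate block) and the fold threshold (1.5), or took out a trend with GC content or transcript length (loess, span 0.3). Adding "-ps" rows to their parent genes, and median-ratio scaling with the length trend removed, were chosen after seeing the data.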

Additional observations from a re-analysis of the deposited data

How the results depend on the processing

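The number of members called higher was 40, and 18 of these 40 kept direction and call under all 20 alternatives run on single genes. The count was 26 with no filter, against 6.51% of all genes, and 24 with the length trend removed, against 9.61%. It ranged from 34 to 38 with a library left out, where the share of all genes was not worked out. The number called lower was 0, but 2 with the length trend removed (Ndufaf2 and Ndufaf6) and 0 to 1 with a library left out (1, Ndufaf4, without K382R replicate 3). The members' median log2 fold change of 0.25 became 0.33 with FPKM, 0.40 with median-ratio scaling, 0.34 with quantile normalization, 0.12 with the length trend removed, 0.27 with both that removal and median-ratio scaling (chosen after seeing the data), and 0.23 to 0.26 with a library left out. A fold change over 1.5 was passed by 3 members (Ndufa4l2, Ndufv3 and Ndufa3), against 3.74% of all genes tested.

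Single genes reversed in these cases. Ndufaf2 stood at 0.05 with FPKM, 0.12 with median-ratio scaling and 0.13 with quantile normalization. Ndufaf7 ranged from -0.0016 (without K382Q replicate 2) to 0.176 with a library left out. With the length trend removed, Ndufs7 stood at -0.0607, Ndufa8 at -0.0206, Ndufb7 at -0.0010 and Ndufaf8 at -0.0529. The causes were not tested. Same-numbered replicates did not deviate together (r of -0.018, 0.051 and 0.022 over 15426 genes), so the numbers do not pair the samples. A replicate block gave 39 members called higher and 1 lower (Ndufaf4). The share of all genes called with that block was not worked out. With 3 replicates per mutant and no counts, precision rests on the spread between replicates.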
